A study of Homo sapiens with 50 samples.

Results

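HepaRG cells exposed to the herbicide mesotrione at 10 µM or 0.1 µM were compared, as 1 pooled low-dose group, with control HepaRG cells. The 10 low-dose libraries were those titled with mesotrione at these concentrations, 5 at each, and they were set against the 5 libraries titled Control. These 15 libraries were drawn from 50 libraries in 10 groups. HepaRG is an established human hepatic line whose differentiated cultures hold hepatocyte-like cells beside biliary-like cells. All groups used here were differentiated cultures moved on day 8 into a test medium with 2% fetal bovine serum and 1% DMSO, with the herbicide in the treated groups, and kept in it until day 14. A high-dose mesotrione group (1 mM, 5 libraries) and the pooled low doses of a second herbicide, isoxaflutole (10 µM and 0.1 µM, 10 libraries), served only as comparisons. Total RNA was depleted of ribosomal RNA and sequenced as stranded paired-end libraries.

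Mesotrione is a triketone herbicide that blocks 4-hydroxyphenylpyruvate dioxygenase, an enzyme that plants need to make plastoquinone and tocopherols. The human counterpart, HPD, acts in the liver in the breakdown of tyrosine. That pathway starts with tyrosine aminotransferase (TAT), continues through HPD, homogentisate dioxygenase (HGD) and maleylacetoacetate isomerase (GSTZ1), and ends with fumarylacetoacetase (FAH). Liver cells also answer many foreign compounds through receptors that switch on sets of drug-metabolizing genes, among them the aryl hydrocarbon receptor, CAR, PXR and PPAR alpha. The comparison addresses whether concentrations well below the high dose change the transcriptome of these cells.

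Each library's summed FPKM (fragments per kilobase of transcript, scaled to the fragments of the library) lay between 559096 and 685984, and 12602 to 13774 genes reached 1 FPKM. The depth, estimated from the FPKM value of a single fragment, was about 7079460 to 33884400 fragments in low-dose libraries and 11749000 to 24547100 fragments in control libraries. Pearson's r of log2(FPKM + 1) between 2 low-dose libraries was 0.923 to 0.956, that between a low-dose and a control library 0.927 to 0.955, and that between 2 control libraries 0.942 to 0.951. In each group 1 library stood apart in acute phase genes, as described with those genes. The summed level of the cytosolic ribosomal protein genes was 15651 FPKM in 1 library at 10 µM, against a median of 22142 FPKM over the 10 low-dose libraries and 20618 to 23339 FPKM in control libraries. Whether libraries of the same group are separate cultures is not stated in the labels, and p-values here reflect the spread among libraries, which may be technical.

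At the low doses no gene passed the test against control. Of 56567 named genes, 13657 reached 1 FPKM in at least 5 of the 15 libraries and were tested with limma on log2(FPKM + 1). With Benjamini-Hochberg adjusted p under 0.05, 0 genes were higher (0%) and 0 were lower (0%) in low-dose libraries, and the smallest adjusted p was 0.332. At an unadjusted p under 0.05 there were 338 genes, 2.47% of those tested, of which 191 (1.4%) were higher and 147 (1.08%) lower. With no effect the average share would be 0.05, so these p-values may be conservative. The values of the 10 low-dose libraries lay wholly above those of the 5 control libraries for 0 genes (0%) and wholly below them for 2 genes (0.0146%).

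The precision of this null result differed between genes. The median log2 fold change over all tested genes was -0.0027, the 5th and 95th percentiles were -0.29 and 0.30, and the median standard error was 0.134. The 95% interval of the fold change lay within a log2 difference of 1 in either direction for 12616 genes (92.4%) and within 0.5 for 9098 genes (66.6%). For the other genes the interval reached a difference of that size or more. The fitted fold change itself exceeded 1 in size for 46 genes, none past the adjusted threshold.

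**Figure D1:**
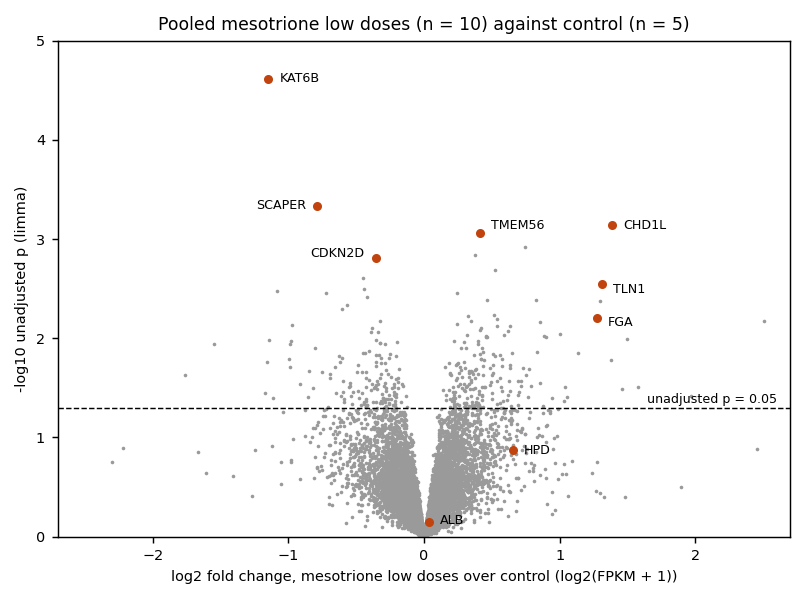
Each point is 1 of the 13657 genes tested, with the log2 fold change (mesotrione low doses over control, log2(FPKM + 1) scale) on the horizontal axis and -log10 of the unadjusted limma p on the vertical axis; the dashed line marks an unadjusted p of 0.05. 338 genes lie above the line, none passed the adjusted threshold, and most points lie between -0.29 and 0.30.

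Reads of many genes were split between named transcripts and assembled transcripts without a gene name, and this split touched the genes with the smallest p-values. The 15 libraries carried 11.4% to 16.1% of their FPKM on unnamed transcripts. Of the genes tested, 2050 had over 25% of their locus on unnamed transcripts and 707 had over 50%. Of the 338 genes at an unadjusted p under 0.05, 209 kept the direction and that p when unnamed transcripts were added to the named gene at their locus. The genes described in the next 3 paragraphs were singled out after their values were seen.

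KAT6B, a histone acetyltransferase gene (chr10:74825582-75032622, GRCh38), had the smallest p. Its named transcripts were at 0.0801, 0.927, 0.410, 0.177 and 1.15 FPKM at 10 µM, at 0.0484, 0.258, 0.330, 0.0104 and 0.374 FPKM at 0.1 µM, and at 2.29, 2.45, 1.79, 2.67 and 0.955 FPKM in control. All but one of the low-dose libraries were below all 5 control libraries. The log2 fold change was -1.15 (95% interval -1.56 to -0.74, limma adjusted p = 0.332). With a block for the runs of sample numbers the limma adjusted p was 0.0469. These runs were not taken to pair the libraries over all genes. With unnamed transcripts added, KAT6B was at 2.25 to 3.57 FPKM in low-dose libraries and 2.93 to 3.41 FPKM in control libraries, and the log2 fold change was -0.15 (95% interval -0.33 to 0.03). The groups then overlapped. SCAPER, a gene of a cyclin A associated protein, had a log2 fold change of -0.79 by name and -0.35 with unnamed transcripts added.

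CACNA2D1, a subunit gene of voltage-gated calcium channels (chr7:81946444-82443798), went the other way. By name it was at 1.38 to 1.97 FPKM (median 1.70) in low-dose libraries and at 2.87, 1.39, 2.90, 1.00 and 3.13 FPKM in control libraries, and its log2 fold change was -0.21 (95% interval -0.53 to 0.11). With unnamed transcripts added it was at 1.42 to 2.02 FPKM in low-dose libraries and at 2.87, 2.91, 2.90, 3.28 and 3.13 FPKM in control libraries, so that the groups did not overlap. In that setting its log2 fold change was -0.56 (95% interval -0.70 to -0.41, limma adjusted p = 0.00624 over 14191 genes), and it was the 1 gene (0.00705%) past the threshold. The difference was alike at 10 µM (-0.57) and 0.1 µM (-0.55), and the 1 mM libraries were at 0.746 to 1.78 FPKM. The 10 isoxaflutole low-dose libraries spread from 0.789 to 5.15 FPKM in the same setting.

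The 2 genes whose groups did not overlap by name were C5orf30 and CDKN2D. CDKN2D, an inhibitor of the cyclin D kinases, was at 2.21 to 3.35 FPKM in low-dose libraries and 3.41 to 4.03 FPKM in control libraries, with a log2 fold change of -0.36 (95% interval -0.56 to -0.16, limma adjusted p = 1.00). The 1 mM libraries spanned 0.586 to 4.57 FPKM, across both groups. C5orf30 was at 1.70 to 2.28 FPKM in low-dose and 2.28 to 2.61 FPKM in control libraries (log2 fold change -0.19). Among the other genes of small p, TMEM56 was at 5.04 to 7.81 FPKM in low-dose and 3.58 to 5.19 FPKM in control libraries, a log2 fold change of 0.41 (95% interval 0.20 to 0.62) that did not depend on unnamed transcripts. CHD1L, a chromatin remodeller gene, was at 2.11 to 6.99 FPKM in low-dose libraries and at 0.0750, 1.63, 6.11, 0.727 and 1.06 FPKM in control libraries, where the third library lay within the low-dose range. Its log2 fold change was 1.39 (95% interval 0.69 to 2.09, limma adjusted p = 1.00), and 1.79 (limma adjusted p = 0.0368) without that control library. TLN1, the gene of the adhesion protein talin, was at 12.9 to 54.4 FPKM in low-dose libraries and at 8.70, 27.4, 36.5, 9.27 and 6.80 FPKM in control libraries.

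No gene of tyrosine degradation, the pathway that holds the herbicide's target, passed the test against control. Of 8 genes, 7 were tested, and 0 were higher and 0 lower even at an unadjusted p under 0.05, against 1.4% and 1.08% of all genes. Their median log2 fold change was 0.03, against -0.0027 over all genes tested. The summed level of the 8 genes was 151 to 185 FPKM in low-dose libraries and 145 to 169 FPKM in control libraries, so the ranges overlapped.

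HPD itself (chr12:121839527-121863596) was at 32.6, 27.1, 19, 28.7 and 34.5 FPKM at 10 µM, at 21.7, 19.6, 21.8, 20.3 and 25 FPKM at 0.1 µM, and at 27.2, 20.7, 22.1, 1.83 and 26.8 FPKM in control. The fourth control library was far below the rest. The log2 fold change of the pooled low doses was 0.66 with an interval too wide to place it (-0.23 to 1.54). With unnamed transcripts added, the low control library stood at 22.8 FPKM, among the others, and the log2 fold change was 0.14 (95% interval -0.08 to 0.35, limma adjusted p = 1.00). In that setting HPD was at 35, 27.1, 26.3, 28.7 and 34.6 FPKM at 10 µM and at 23.7, 24.6, 21.8, 26.4 and 25.1 FPKM at 0.1 µM, against 27.2, 23.0, 22.1, 22.8 and 27.6 FPKM in control. Its log2 fold change against control was then 0.29 at 10 µM (95% interval 0.09 to 0.49, limma adjusted p = 1.00) and -0.01 at 0.1 µM (-0.21 to 0.19). All 5 libraries at 10 µM lay above the control median, and the groups overlapped.

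The last enzymes of the pathway were placed more tightly. FAH, which releases fumarate and acetoacetate, averaged 48 ± 5.92 FPKM in low-dose libraries and 47.7 ± 5.70 FPKM in control libraries (SD, n = 10 and 5), a log2 fold change of 0.01 (95% interval -0.18 to 0.20). GSTZ1 averaged 16.5 ± 1.96 FPKM in low-dose and 16.0 ± 2.42 FPKM in control libraries, with a log2 fold change of 0.04 (-0.17 to 0.26). Both intervals lay within 0.5 in either direction. HGD, which opens the aromatic ring, averaged 22.3 ± 6.81 FPKM in low-dose and 19.7 ± 6.83 FPKM in control libraries, and its log2 fold change was 0.18 by name and -0.13 (95% interval -0.31 to 0.05) with unnamed transcripts added. TAT stayed under the limit for testing, at 0.686 ± 0.164 FPKM in low-dose and 0.609 ± 0.171 FPKM in control libraries. QDPR and PCBD1, which regenerate the tetrahydrobiopterin cofactor of aromatic amino acid hydroxylases, had log2 fold changes of 0.02 (-0.13 to 0.18) and -0.07 (-0.22 to 0.09).

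**Figure D2:**
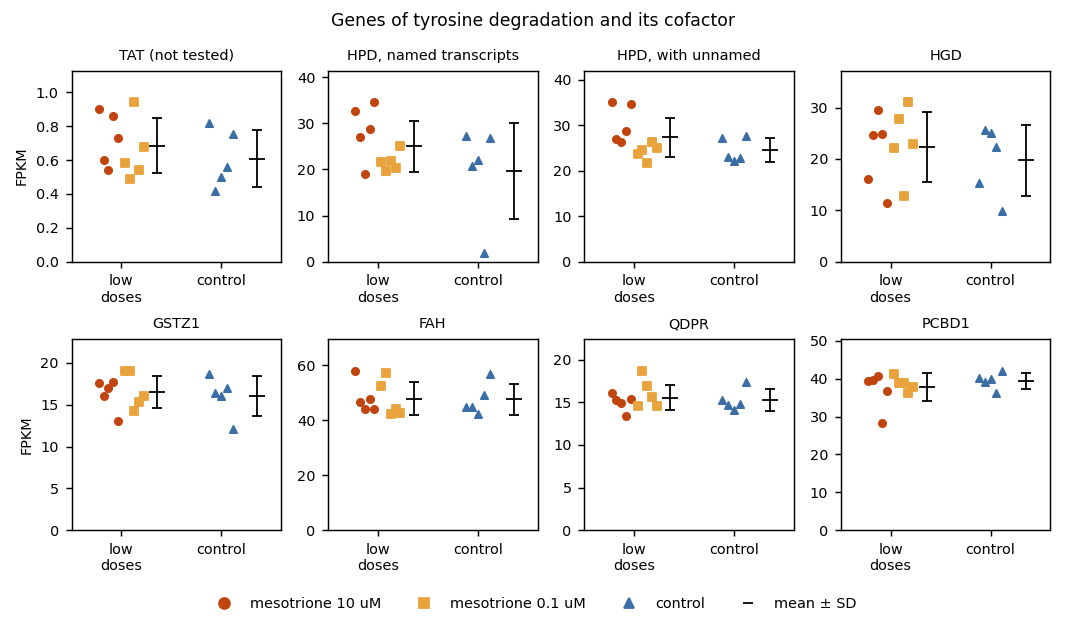
FPKM of TAT, HPD (by name and with unnamed transcripts added), HGD, GSTZ1, FAH, QDPR and PCBD1 in each library, with the mesotrione low doses on the left (circles 10 µM, squares 0.1 µM) and control on the right (triangles); bars show mean ± SD. The groups overlap in every panel, and the control library at 1.83 FPKM of HPD stands at 22.8 FPKM once unnamed transcripts are added.

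Targets of the receptors that sense foreign compounds did not pass the test either. Of 9 genes of the aryl hydrocarbon receptor, 8 were tested, with 0 at an unadjusted p under 0.05 and a median log2 fold change of -0.02. CYP1B1, a monooxygenase that this receptor induces, was at 7.68 ± 0.510 FPKM in low-dose libraries and 7.86 ± 0.820 FPKM in control libraries, a log2 fold change of -0.03 (95% interval -0.17 to 0.12). CYP1A2, TIPARP and NQO1 had log2 fold changes of -0.04, -0.02 and -0.18, and intervals of -0.42 to 0.34, -0.21 to 0.17 and -0.50 to 0.14. CYP1A1, the textbook target, was too low to test. It was listed at 0 to 0.927 FPKM at 10 µM, 0 to 0.0966 FPKM at 0.1 µM and 0.431 to 0.711 FPKM in control, while with unnamed transcripts added it was at 0.117 to 0.948 FPKM in low-dose and 0.431 to 0.753 FPKM in control libraries. The second pair of ranges overlapped, with no low-dose library above 1 FPKM.

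Of 20 genes of CAR and PXR, 19 were tested. At an unadjusted p under 0.05, 0 were higher and 2 were lower, against 1.4% and 1.08% of all genes tested. The median log2 fold change was 0.03. CYP3A4, the main drug-oxidizing cytochrome of adult liver, was at 6.30, 5.85, 2.91, 2.71 and 11.2 FPKM at 10 µM, at 1.38, 3.32, 3.95, 3.40 and 3.02 FPKM at 0.1 µM, and at 3.10, 2.80, 2.65, 2.7 and 2.53 FPKM in control. At 10 µM, 3 libraries lay above all control libraries and 2 lay within the control range. At 0.1 µM the libraries at 3.32, 3.95 and 3.40 FPKM also lay above all control libraries, and that at 1.38 FPKM lay below them. The log2 fold change was 0.71 at 10 µM (95% interval 0.11 to 1.32), 0.06 at 0.1 µM and 0.39 for both doses pooled (-0.21 to 0.98), each with a limma adjusted p of 1.00. At 1 mM CYP3A4 averaged 10.8 ± 5.08 FPKM (SD, n = 5). CYP2C8, another cytochrome of this set, was at 32.3 ± 5.28 FPKM in low-dose and 30.3 ± 2.45 FPKM in control libraries (log2 fold change 0.08, 95% interval -0.14 to 0.30), and CYP2B6 had a log2 fold change of -0.18 (-0.91 to 0.54). The 2 genes lower before adjustment were UGT1A1, which conjugates bilirubin, at 41.9 ± 11.8 FPKM in low-dose and 58.4 ± 17.4 FPKM in control libraries (-0.46, 95% interval -0.92 to -0.01), and ALAS1, the first enzyme of haem synthesis, at 18.3 ± 1.19 FPKM in low-dose and 20.1 ± 1.33 FPKM in control libraries (-0.13 by name and -0.05 with unnamed transcripts added).

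Of 30 PPAR alpha targets, 27 were tested and 0 had an unadjusted p under 0.05, with a median log2 fold change of 0.02. PDK4, a kinase that restrains glucose oxidation, was at 6.79 ± 2.06 FPKM in low-dose and 5.19 ± 1.03 FPKM in control libraries (0.30, -0.10 to 0.70). CPT1A and PLIN2, of fatty acid import into mitochondria and of lipid droplets, both had a log2 fold change of 0.02, with intervals of -0.18 to 0.23 and -0.12 to 0.17. Of 22 targets of NRF2, the factor of the oxidative stress response, 20 were tested and 0 had an unadjusted p under 0.05, with a median of -0.04. SRXN1, which repairs oxidized peroxiredoxins, was at 68.1 ± 8.24 FPKM in low-dose and 68.9 ± 6.65 FPKM in control libraries (-0.02, 95% interval -0.22 to 0.17).

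**Figure D3:**
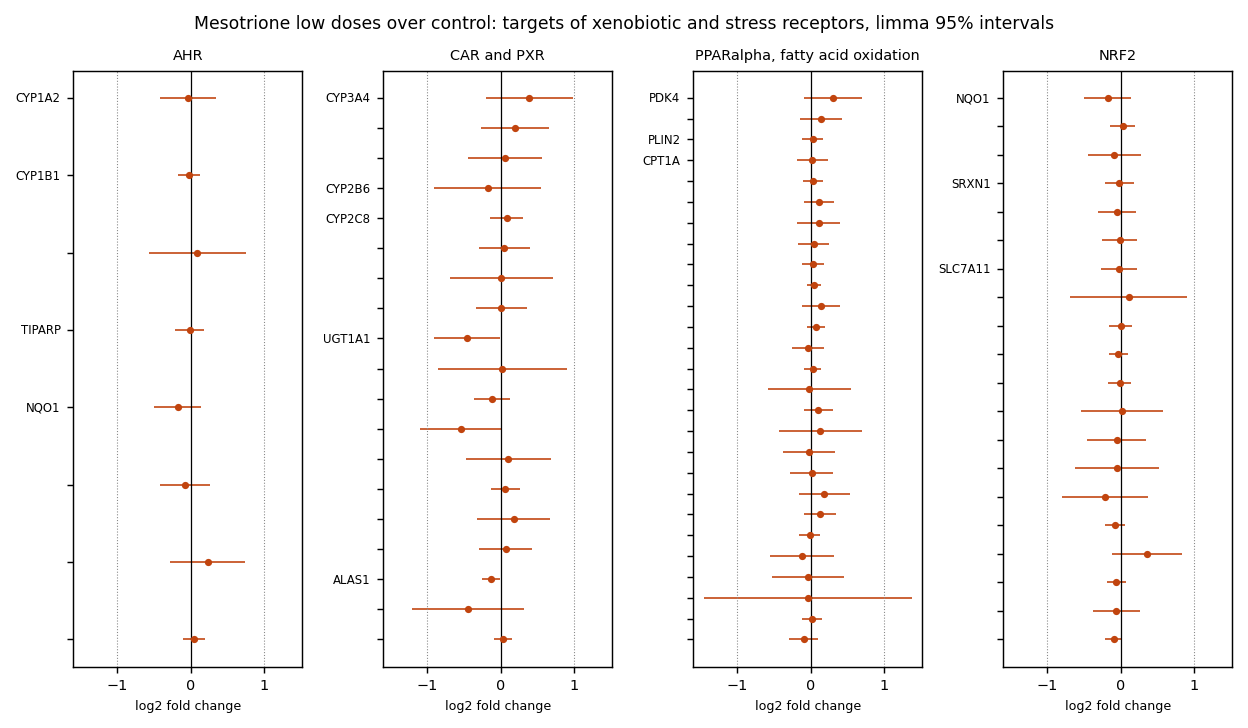
Log2 fold change (mesotrione low doses over control, log2(FPKM + 1) scale) with its 95% limma interval for tested targets of 4 regulators, the aryl hydrocarbon receptor (8 genes), CAR and PXR (19), PPAR alpha (27) and NRF2 (20); dotted lines mark -1 and 1, and genes named in the text are labelled. The 4 medians lie between -0.04 and 0.03, and no gene passed the adjusted threshold.

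Over 39 gene lists chosen to cover liver functions, stress responses and cell types, 675 of 856 genes were tested. Of these, 18 (2.67%) had an unadjusted p under 0.05, near the 2.47% of all genes tested, and 0 passed the adjusted threshold. The 95% interval lay within 1 in either direction for 614 of the 675. In the unfolded protein and amino acid stress list, 23 of 24 genes were tested, 0 were below an unadjusted p of 0.05, and the median log2 fold change was 0.02. HSPA5, the main chaperone of the endoplasmic reticulum, was at 145 ± 9.6 FPKM in low-dose and 144 ± 5.51 FPKM in control libraries (0.01, 95% interval -0.11 to 0.12). ASNS and TRIB3, both switched on by the factor ATF4, had log2 fold changes of -0.02 (-0.23 to 0.18) and 0.01 (-0.15 to 0.17).

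Single genes of other stress lists fell below an unadjusted p of 0.05 without passing the adjusted test. HSPB1, a small heat shock protein, was at 292 ± 73.3 FPKM in low-dose and 374 ± 47.3 FPKM in control libraries, a log2 fold change of -0.39 by name and -0.29 with unnamed transcripts added. MDM2, the p53 target that in turn degrades p53, was at 78.2 ± 16.7 FPKM in low-dose and 57.3 ± 29.7 FPKM in control libraries (0.58), while CDKN1A, the p53 target that halts the cell cycle, had a log2 fold change of -0.03 (95% interval -0.18 to 0.12). Of 23 cell cycle genes, 22 were tested and 0 had an unadjusted p under 0.05. Of 86 histone genes, 58 were tested and 2 were higher at that level, HIST1H3E and HIST2H2BE, against 1.4% of all genes tested.

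No listed gene of lipid or nitrogen metabolism passed the adjusted test. At an unadjusted p under 0.05, 1.4% of all genes tested were higher at the low doses. Of 20 cholesterol synthesis genes, all were tested and 1, HSD17B7, was higher before adjustment (0.31 by name and 0.09 with unnamed transcripts added). Of 15 fatty acid synthesis genes, 13 were tested and 0 had an unadjusted p under 0.05. Of 13 urea cycle and related genes, 10 were tested and 1 was higher before adjustment. That gene, CPS1, the entry enzyme of the urea cycle, was at 5.83 ± 1.29 FPKM in low-dose and 4.32 ± 0.816 FPKM in control libraries, a log2 fold change of 0.35 (0.04 to 0.65) by name and 0.38 with unnamed transcripts added, with a limma adjusted p of 1.00 in both settings. ASS1, which joins citrulline and aspartate in the same cycle, had a 95% interval of -0.15 to 0.15. ABCB4, the phospholipid exporter of the bile canaliculus, was at 7.33 ± 1.25 FPKM in low-dose and 5.82 ± 1.26 FPKM in control libraries (0.29, 0.03 to 0.56).

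Hepatocyte markers ranged from TAT, under the limit for testing, to the abundant ALB, and no tested marker passed the adjusted test. Of 22 markers, 21 were tested, and the median log2 fold change was 0.03. At an unadjusted p under 0.05, 2 (FGA and CPS1) were higher, against 1.4% of all genes tested. ALB, the gene of serum albumin, was at 9678 ± 1161 FPKM in low-dose and 9420 ± 770 FPKM in control libraries, a log2 fold change of 0.03 (95% interval -0.16 to 0.23). APOA1, the main protein of high-density lipoprotein, had a log2 fold change of 0.02. FGA, a fibrinogen chain, was at 731 to 1668 FPKM in low-dose and 198 to 1255 FPKM in control libraries. Its log2 fold change was 1.27 (0.42 to 2.12) by name but 0.34 (-0.09 to 0.76) with unnamed transcripts added. C5, a complement component, had 0.93 by name and -0.02 with unnamed transcripts added. For both genes, part of the locus lay on unnamed transcripts in some control libraries. For C5 this also held in the third 10 µM library (18.8 FPKM by name and 32.2 FPKM with unnamed transcripts added).

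Markers of other cell types were set beside these values, since in bulk RNA fewer cells of a type and less RNA per cell cannot be told apart. The biliary and progenitor list (6 of 10 tested) summed to 606 to 776 FPKM in low-dose and 636 to 727 FPKM in control libraries. KRT19, a keratin of bile duct cells, was at 543 ± 51.2 FPKM in low-dose and 534 ± 42.0 FPKM in control libraries (log2 fold change 0.02). SOX9, a progenitor factor, was the 1 member higher before adjustment (0.41 by name and 0.10 with unnamed transcripts added), against 1.4% of all genes tested. The mesenchymal list (8 of 12 tested) summed to 53 to 78.1 FPKM in low-dose and 55.9 to 71.6 FPKM in control libraries, and the matrix list (16 of 20 tested) had 0 genes at an unadjusted p under 0.05 and a median of 0.03. COL3A1, a fibrillar collagen chain, was at 18.6 ± 2.90 FPKM in low-dose and 17.7 ± 2.95 FPKM in control libraries. The leukocyte list (5 of 10 tested) summed to 11.3 to 41.8 FPKM in low-dose and 12 to 41.0 FPKM in control libraries. Its tested members were CD68, LYZ, CD14, MARCO and CD74, of which CD68, a lysosomal protein of macrophages, spanned 1.22 to 28.6 FPKM in low-dose and 5.14 to 27.7 FPKM in control libraries. Its other members included PTPRC, which reached 0.0648 FPKM, and CD3E and MS4A1, which were listed at 0. The endothelial list (1 of 8 tested, KDR) summed to 2.25 to 4.62 FPKM in low-dose and 1.87 to 2.41 FPKM in control libraries. Pooled, KDR had a log2 fold change of 0.32 and no unadjusted p under 0.05 by limma. At 10 µM it was higher before adjustment against control (0.49) and against 0.1 µM (0.35). In those comparisons 2.43% and 3.79% of all genes tested had such a p in either direction. In that list CDH5 reached 0.0180 FPKM and CLEC4G was listed at 0.

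Acute phase genes varied widely between libraries of the same group. Of 19 genes, 17 were tested, and the median log2 fold change was -0.05. At an unadjusted p under 0.05, 1 (FGA) was higher and 0 were lower, against 1.4% and 1.08% of all genes tested. In each group the library with the lowest sample number in its title stood apart from the other 4. CRP, the plasma marker of inflammation, was at 70.6 FPKM in that library at 10 µM, at 71.5 FPKM in that at 0.1 µM and at 82.5 FPKM in that of control. The other 8 low-dose libraries were at 5.90 to 18.3 FPKM and the other 4 control libraries at 13.2 to 18.9 FPKM. SAA1, an apolipoprotein of the acute phase, was at 111, 73.8 and 140 FPKM in the same 3 libraries (10 µM, 0.1 µM and control), against 10.1 to 23.8 FPKM in the other low-dose and 10.4 to 22.9 FPKM in the other control libraries. The haemoglobin scavenger HP was at 3026, 2904 and 3774 FPKM in these 3 libraries and the iron-sequestering LCN2 at 194, 214 and 261 FPKM. The other libraries of each group had 702 to 1017 FPKM of HP in low-dose and 790 to 1094 FPKM in control libraries, and 19.3 to 43.7 FPKM of LCN2 in low-dose and 29.1 to 50.4 FPKM in control libraries.

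Every group held 1 such library. Without the 3, the fold changes moved by less than their standard errors, and the standard errors shrank. The log2 fold change of CRP was -0.29 (SE 0.57) with all 15 libraries and -0.31 (SE 0.24) without the 3. For SAA1 it was -0.18 (SE 0.62) with all and -0.07 (SE 0.23) without, for SAA2 -0.32 (SE 0.67) and -0.23 (SE 0.20), for HP -0.15 (SE 0.40) and -0.10 (SE 0.13), for ORM1 -0.05 (SE 0.44) and 0.02 (SE 0.29), and for LCN2 -0.30 (SE 0.61) and -0.28 (SE 0.20). None of the 6 had an adjusted p under 0.05 by limma in either setting, and without the 3 libraries 0 of the 13657 genes passed. This setting was chosen after the values were seen. With a block for the runs of sample numbers, HP (SE 0.048) and LCN2 (SE 0.10) were lower at an unadjusted p under 0.05 by limma. No adjusted p of the 6 was under 0.05 there. The labels name 3 sequencing pools but do not assign libraries to them, and what set these libraries apart was not tested.

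**Figure D4:**
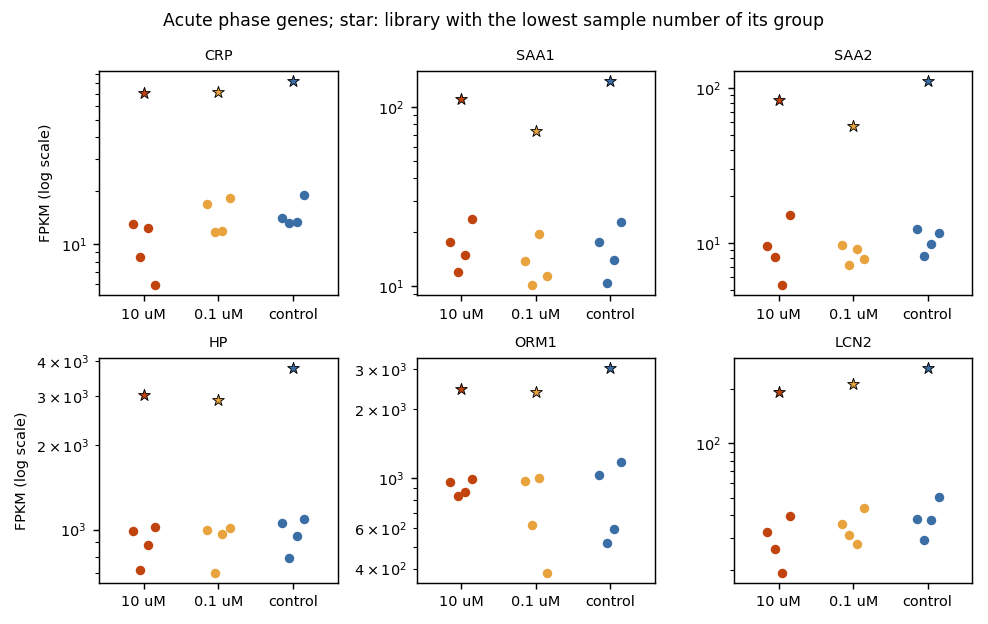
FPKM on a log axis of CRP, SAA1, SAA2, HP, ORM1 and LCN2 in each library of mesotrione 10 µM, mesotrione 0.1 µM and control; the star is the library with the lowest sample number in its group's titles. In each group the star lies above the other 4 libraries, for CRP at 70.6 to 82.5 FPKM against 5.90 to 18.9 FPKM.

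The 2 doses were also set against the same 5 control libraries one at a time. At 10 µM, 0 genes passed the adjusted threshold (0%) and 332 (2.43%) had an unadjusted p under 0.05. At 0.1 µM these were 0 (0%) and 456 (3.34%). Both unadjusted shares were also below 0.05. Of the list genes, 20 of 675 (2.96%) at 10 µM and 16 of 675 (2.37%) at 0.1 µM had an unadjusted p under 0.05, and 0 passed the adjusted threshold at either dose. The 10 µM comparison placed 89.2% of genes within a log2 difference of 1 and the 0.1 µM comparison 88.6%, fewer than the pooled comparison.

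Set directly against each other, 10 µM and 0.1 µM differed in 1 gene of 13657 (0.00732%), which fell at 10 µM. At that comparison 517 genes (3.79%) had an unadjusted p under 0.05. The gene was AC016596.1, a processed pseudogene annotated over 78 bases (chr5:55944656-55944733, plus strand), about as long as a single read. It was at 156, 137, 148, 160 and 170 FPKM at 10 µM and at 311, 284, 254, 317 and 251 FPKM at 0.1 µM, without overlap. Its log2 fold change was -0.87 (95% interval -1.12 to -0.63, limma adjusted p = 0.0270). Control libraries were at 252, 198, 225, 178 and 275 FPKM, all above the 10 µM libraries and partly within the 0.1 µM range, and the 1 mM libraries were at 187 to 258 FPKM, so the values did not follow the order of the doses. Reads of a pseudogene can be shared with other copies of its sequence, which makes its level uncertain. The call was lost under median-ratio scaling of the libraries, with no filter on low values and when any of 8 of the 10 libraries was left out; it held without the fourth 10 µM or the fifth 0.1 µM library.

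The low doses differed from the high dose in many genes. Relative to 1 mM, 286 genes passed the adjusted threshold (2.09%), of which 228 (1.67%) were higher and 58 (0.425%) lower at the low doses. The count was 163 without the second 1 mM library, 151 with no filter on low values, 45 with all 50 libraries in the fit and 483 with unnamed transcripts added. This comparison shares the 10 low-dose libraries with the comparison against control, so the values are given side by side and no relation between them was tested. In the 228 genes the median log2 fold change was 0.61 against 1 mM and 0.01 against control, where 4 of the 228 had an unadjusted p under 0.05 and 224 had a 95% interval within 1 in either direction. In the 58 genes the median was -0.40 against 1 mM and -0.04 against control, where 3 had an unadjusted p under 0.05 and 57 had such an interval. Over all genes tested, 2.47% had an unadjusted p under 0.05 against control and 92.4% had such an interval. Genes called against 1 mM were selected in part for a small spread in the shared libraries, which also narrows their intervals against control.

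Against the 1.67% of all genes that were higher at the low doses than at 1 mM, the lists held 7 of 16 tested matrix genes, 4 of 19 coagulation and complement genes, 3 of 17 acute phase genes and 3 of 10 apolipoprotein genes. Some of these lists share members with the marker lists given next, among them COL3A1, APOA1 and FGA, so the counts are not separate. Marker lists moved in the same comparison, with 5 of 21 hepatocyte, 2 of 6 biliary and progenitor, 3 of 8 mesenchymal and 1 of 5 leukocyte markers higher at the low doses. In these lists 0 markers were lower past the adjusted threshold. At an unadjusted p under 0.05, 2 hepatocyte markers and 1 biliary and progenitor marker were lower at the low doses. The summed levels of the hepatocyte, biliary and mesenchymal lists were 21672 to 25975, 606 to 776 and 53 to 78.1 FPKM in low-dose libraries. In 1 mM libraries they were 13268 to 21802, 425 to 563 and 24.7 to 37.7 FPKM. At the low doses KRT19 made up most of the biliary sum and ALB a large part of the hepatocyte sum. The part of these markers in the matrix and plasma protein values was not tested. COL3A1 was at 18.6 ± 2.90 FPKM in low-dose and 2.62 ± 0.905 FPKM in 1 mM libraries, a log2 fold change of 2.46 (limma adjusted p = 4.79e-07). The other matrix genes named here, DCN (1.44) and SFRP2 (1.56), encode a small proteoglycan and a secreted Wnt antagonist. AHSG, the plasma glycoprotein fetuin A, was at 66.4 ± 9.45 FPKM in low-dose and 18.3 ± 6.87 FPKM in 1 mM libraries (1.87, limma adjusted p = 3.15e-05), and at 67.4 ± 10.4 FPKM in control. CRP was at 5.90 to 71.5 FPKM in low-dose and 1.92 to 3.30 FPKM in 1 mM libraries (2.38, limma adjusted p = 0.0162). CYP2C8 was at 32.3 ± 5.28 FPKM in low-dose and 12.3 ± 4.24 FPKM in 1 mM libraries (1.37, limma adjusted p = 0.000509).

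In the NRF2 list 4 of 20 tested genes, and in the unfolded protein and amino acid stress list 4 of 23, were lower at the low doses than at 1 mM, against 0.425% of all genes. In the stress list 3 other genes were higher at an unadjusted p under 0.05, with 0 past the adjusted threshold. In the first were SRXN1 (-0.70) and SLC7A11, the cystine importer (-0.63), and in the second ASNS (-0.89) and TRIB3 (-0.45). ASNS was at 8.76 ± 1.36 FPKM in low-dose, 17.2 ± 3.36 FPKM in 1 mM and 8.87 ± 0.782 FPKM in control libraries. CYP1B1 was at 7.68 ± 0.510 FPKM in low-dose and 12.8 ± 1.5 FPKM in 1 mM libraries (-0.66, limma adjusted p = 6.75e-05). The long noncoding RNA APCDD1L-AS1 was at 3.87 ± 0.859 FPKM in low-dose and 8.53 ± 1.99 FPKM in 1 mM libraries (-0.97). HPD was at 25 ± 5.52 FPKM in low-dose and 17.0 ± 4.96 FPKM in 1 mM libraries, a log2 fold change of 0.56 (95% interval 0.17 to 0.95, limma adjusted p = 0.163) by name and 0.45 (0.23 to 0.66, limma adjusted p = 0.0198) with unnamed transcripts added.

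**Figure D5:**
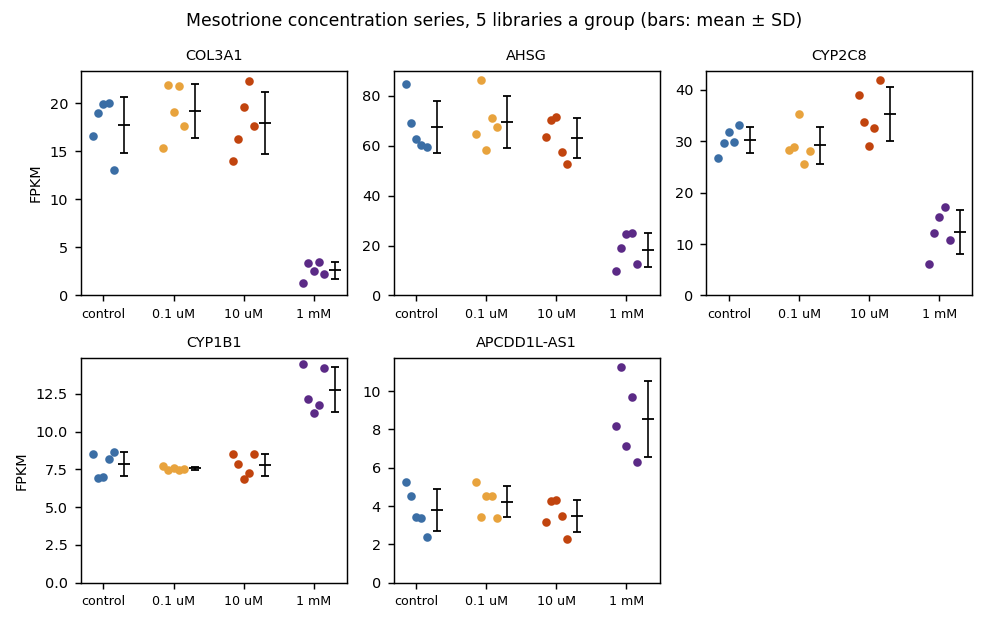
FPKM of COL3A1, AHSG, CYP2C8, CYP1B1 and APCDD1L-AS1 in each library of control and of mesotrione at 0.1 µM, 10 µM and 1 mM; bars show mean ± SD (n = 5). The 0.1 µM and 10 µM libraries overlap the control libraries in all 5 genes, and the 1 mM libraries lie apart from them.

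Isoxaflutole is a pro-herbicide of a different chemical class whose ring-opened product blocks the same plant enzyme. At the matched doses of 10 µM and 0.1 µM, the 10 mesotrione libraries were set against the 10 isoxaflutole libraries, the only pair of compounds compared. Of 13657 genes, 1019 (7.46%) had an unadjusted p under 0.05, of which 268 were higher and 751 lower with mesotrione. Past the adjusted threshold there was 1 gene, lower with mesotrione (0.00732%). That gene, CDK1, the kinase that drives entry into mitosis, was at 1.08 ± 0.523 FPKM with mesotrione and 3.12 ± 1.18 FPKM with isoxaflutole (log2 fold change -0.97, 95% interval -1.29 to -0.66, limma adjusted p = 0.0413). Over 50% of its locus lay on unnamed transcripts. With these added, CDK1 was at 5.85 ± 0.823 FPKM with mesotrione and 7.28 ± 1.09 FPKM with isoxaflutole (-0.27, 95% interval -0.44 to -0.10, limma adjusted p = 0.576), and it was at 6.19 ± 1.15 FPKM in control. The call was also lost with no filter on low values, under median-ratio scaling, with all 50 libraries in the fit, and in most of the fits that left out 1 library.

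The target enzyme was placed within narrow bounds between the compounds once unnamed transcripts were counted. HPD was then at 27.3 ± 4.37 FPKM with mesotrione and 25.2 ± 3.82 FPKM with isoxaflutole, a log2 fold change of 0.11 (95% interval -0.08 to 0.30). By name it was 0.82 (-0.11 to 1.74), with libraries as low as 1.07 FPKM among those of isoxaflutole. COL3A1 had a log2 fold change of 0.03 (-0.17 to 0.23), CYP1B1 of -0.04 (-0.16 to 0.09), CYP2C8 of -0.19 (-0.37 to -0.01) and AHSG of -0.22 (-0.42 to -0.03), with adjusted p-values of 0.652 or more by limma. A p that misses the threshold does not show that the compounds act alike; the intervals bound the differences for these genes.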

How the data were processed

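Per the submitters' processing notes, HISAT, HISAT2 and StringTie were used with GRCh38, and no version was found in the labels. The deposited table holds FPKM per transcript, normalized by the authors, in 50 columns of 239290 transcripts, each column matched to a sample by its title. Values in 20 of the deposited columns include a few numbers just below 0, so these columns were recorded as a score; they are otherwise FPKM. FPKM were summed per gene name; 40117 transcripts had no name and were left out, or, as an alternative, added to the 1 named gene at their locus. Depth was estimated from the smallest FPKM steps.

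Genes with at least 1 FPKM in 5 or more of the 15 libraries were tested with limma 3.58.1 in R 4.3.3 (trend and robust settings) on log2(FPKM + 1), with Benjamini-Hochberg adjustment over all genes tested and a threshold of 0.05. A fold change on this scale understates that of low genes. Intervals are limma's 95% intervals. Figures used Python 3.11.15 and matplotlib 3.10.9. The fit was tested on simulated data. Genes of mean FPKM of 5 or more were named by the largest change among those past the threshold or by groups that did not overlap, together with the genes of tyrosine degradation, up to 4 genes of each other list past the threshold (otherwise the one of smallest p), ALB, CYP3A4 and CYP1A1. Other genes were named after their values were seen. The members and all lists were chosen with earlier results of these data known. Alternatives were another pseudocount, other filters, median-ratio scaling, a replicate block, all libraries in 1 fit, unnamed transcripts added and each library left out. Some genes that this rule names are not reported here.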

Additional observations from a re-analysis of the deposited data

Results flagged for a closer look

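In 17 of 148 group and gene pairs looked at, covering 16 genes, 1 library lay far from the others of its group, judged by its gap to the nearest library as a share of the group's range. Chance gives about 1 in 20, but several of these genes (SAA1, SAA2, HP, ORM1, LCN2, CHD1L and SCAPER) were added after their values were seen, so the count says nothing about an excess. The control library with the lowest sample number in its title was the one apart in CRP (gap of 0.919 of the range), SAA1 (0.904), SAA2 (0.962), HP (0.898), ORM1 (0.738), LCN2 (0.908) and the chemokine gene CXCL1 (0.970; 14.5 FPKM against 5.24 to 5.52 FPKM). The matching library of each mesotrione dose was also the highest of its group in these genes, and the reason was not tested. For CXCL1 at 0.1 µM it lay close to the others, at 6.25 FPKM against 2.37 to 5.86 FPKM.

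The other control cases were HPD (0.743; 1.83 FPKM in the fourth library, and 22.8 FPKM with unnamed transcripts added), HSPB1 (0.872; 458 FPKM in the fourth library against 349 to 363 FPKM) and CHD1L (0.742; 6.11 FPKM in the third library against 0.0750 to 1.63 FPKM).

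In the low-dose group the single libraries at 10 µM were those of CYP3A4 (0.498; 11.2 FPKM against 1.38 to 6.30 FPKM), CHD1L (0.553; 2.11 FPKM against 4.81 to 6.99 FPKM), PCBD1 (0.612; 28.3 FPKM against 36.2 to 41.2 FPKM), HIST2H2BE (0.533; 19 FPKM against 34.8 to 48.6 FPKM) and C5 (0.485; 18.8 FPKM by name and 32.2 FPKM with unnamed transcripts added). At 0.1 µM they were those of SCAPER (0.510; 1.73 FPKM against 0.0963 to 0.897 FPKM) and RNU4-2, a spliceosomal RNA gene (0.473; 1.99 FPKM against 7.26 to 13.1 FPKM).

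The doses differed in AC016596.1, which was lower at 10 µM than at 0.1 µM by a log2 fold change of -0.87 (limma adjusted p = 0.0270), with the control libraries above the 10 µM range and partly within the 0.1 µM range.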

How the results depend on the processing

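For the pooled low doses against control, 0 genes passed with another pseudocount, a stricter filter, median-ratio scaling, all 50 libraries, no trend and robust settings or 1 mean per group. It was 2 genes with no filter on low values (AC090617.1 and TUBAP4, both lower), 1 with unnamed transcripts added (CACNA2D1), 1 with the replicate block (KAT6B, adjusted p = 0.0469) and 0 to 1 with each library left out (CHD1L without the third control library). For 10 µM it was 0 throughout, including 0 to 0 with each library left out. For 0.1 µM it was 2 with no filter (the same 2 genes), 1 with the block (KAT6B) and 0 to 1 with each library left out (SCAPER without the fourth 0.1 µM library). For 10 µM against 0.1 µM the 1 call became 0 with no filter, median-ratio scaling, the block or all 50 libraries, and 0 to 2 with each library left out. For the low doses against 1 mM the 286 became 151 with no filter, 45 with all 50 libraries, 483 with unnamed transcripts added and 163 to 291 with each library left out. Against isoxaflutole the 1 call became 0 with no filter, the stricter filter, median-ratio scaling, the block, all 50 libraries or unnamed transcripts added, and 0 to 2 with each library left out. Direction was followed only for named genes, and none of the called genes among them changed it. For the other genes called against 1 mM only counts were compared. The uncalled differences of HGD and C5 changed sign with unnamed transcripts added. The causes were not tested. The block used the 5 runs of sample numbers in the titles, which were not taken to pair the libraries over all genes. Same-run deviations had a median r of 0.0103, with 3 of 15 pairs over 0.1. Deviations of different runs had a median r of -0.0063, with 3 of 60 pairs over 0.1. Of 30 library and group pairs, 11 correlated best with their own number among the 5 runs. The main fit had no term for these runs. The block did shrink the errors of acute phase genes, for HP to an SE of 0.048 against 0.40, with no adjusted p under 0.05. Depth per library was only estimated, and genes under 1 FPKM were not tested.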
